A study of Homo sapiens with 10 samples.

Results

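GATA2, GATA3, TFAP2A, TFAP2B, TFAP2C, MSX1, MSX2, DLX5, ISL1 and HAND1 encode transcription factors that mark or specify non-neural ectoderm, amnion or trophoblast. They were taken by gene symbol from a gene count table of 60898 rows. Each of the 10 symbols stood on 1 row. RNA had been sequenced from 10 libraries of cells labelled NPC (neural progenitor cells) of the human embryonic stem cell line H1. The groups were STAMBP knockout cells given CFLAR (KO+CFLAR), STAMBP knockout cells given STAMBP (KO+STAMBP) and the knockout lines KO1 and KO2, set against unedited cells (WT), with 2 libraries in each of the 5 groups. The first 2 groups are called rescues, and KO1 and KO2 together the knockout. STAMBP is a deubiquitinase that acts on endosomal cargo, and CFLAR is an inhibitor of caspase-8 activation. Which of KO1 and KO2 received a construct, whether either line is 1 clone, and whether paired libraries stem from different cultures is not stated in the labels. Every p-value thus rests on library-to-library spread that may be purely technical.

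Libraries held 16495116 to 20832700 counts. Levels are given as CPM, counts scaled to library size with TMM factors, and a count of 0 in a library allows up to 0.136 to 0.198 CPM, taking 3 counts as the floor. STAMBP averaged 41.5 ± 2.0 CPM in KO+CFLAR, 42.9 ± 3.4 CPM in KO+STAMBP, 18.6 ± 1.2 CPM in the 4 knockout libraries and 45.3 ± 2.7 CPM in WT (SD). CFLAR averaged 30.4 ± 1.4 CPM in KO+CFLAR, 32.1 ± 0.04 CPM in KO+STAMBP, 254.0 ± 8.1 CPM in the knockout and 32.3 ± 2.7 CPM in WT. The libraries labelled KO+CFLAR thus had neither a knockout level of STAMBP nor more CFLAR than WT, and each direction given for them rests on their label. KO+STAMBP had no more STAMBP than WT. Between the rescues neither gene was called by edgeR's quasi-likelihood test (STAMBP adjusted p = 0.888, CFLAR 0.737). These 2 genes thus do not tell the rescues apart, and likeness between the rescues cannot be read as agreement of different treatments. KO+CFLAR below names only the libraries that carry that label. The NPC label was checked against 12 neural progenitor genes. Of these, 10 were lower and 1 was higher in the knockout than in WT (39.4% and 36.8% of all tested genes). Their summed level was 3408 to 3476 CPM in KO+CFLAR, 3382 to 3430 CPM in KO+STAMBP, 3204 to 3216 CPM in the knockout and 5494 to 5770 CPM in WT. VIM and NES, which carry most of that sum, fell in the rescues against the knockout. Over the 12 genes 9 rose and 3 fell, with a median log2 change of 2.96 in KO+CFLAR and 2.89 in KO+STAMBP. Of all tested genes, 40.0% rose and 38.0% fell in KO+CFLAR, and 40.1% rose and 37.8% fell in KO+STAMBP. FABP7, a radial glia gene, averaged 240.8 ± 3.8 CPM in KO+CFLAR, 228.4 ± 3.3 CPM in KO+STAMBP, 0.446 ± 0.238 CPM in the knockout and 1124 ± 41 CPM in WT, while the intermediate filament gene VIM was not called in the knockout against WT (adjusted p = 0.0545). In bulk RNA, fewer cells of a type and less RNA per cell cannot be told apart.

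When the ectoderm is patterned, BMP signalling acts through SMAD1, SMAD5 and SMAD9 to switch on TFAP2, GATA, MSX and DLX genes outside the neural plate, while neural progenitors form where BMP signalling is blocked. TFAP2A, TFAP2C, GATA2 and GATA3 are also the core factors of early trophoblast, and ISL1 and HAND1 are known from the amnion. Several of the genes have a second use in the nervous system, since MSX1 and MSX2 act in the roof plate and cortical hem, DLX5 in GABAergic progenitors of the ventral forebrain, and ISL1 in motor and other neurons.

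The promoters of the 3 factors that rose most in the knockout (GATA2, GATA3, TFAP2A) and of MSX1 and MSX2, which took opposite directions from knockout to rescue, are printed from RefSeq (GRCh38.p14), each from 250 bases before to 50 bases after the most upstream start site. Capitals mark the letters of any of 4 motifs, searched on both strands. TFAP2 proteins are known to bind GCCNNNGGC. The letters taken for GATA proteins were AGATAA. Homeodomain proteins such as MSX, DLX and ISL1 were searched for by the letters TAATTA. The letters GGCGCC stood for SMAD1 and SMAD5, which carry the BMP signal into the nucleus.
GATA2 promoter, chr3:128493152-128493451, minus strand: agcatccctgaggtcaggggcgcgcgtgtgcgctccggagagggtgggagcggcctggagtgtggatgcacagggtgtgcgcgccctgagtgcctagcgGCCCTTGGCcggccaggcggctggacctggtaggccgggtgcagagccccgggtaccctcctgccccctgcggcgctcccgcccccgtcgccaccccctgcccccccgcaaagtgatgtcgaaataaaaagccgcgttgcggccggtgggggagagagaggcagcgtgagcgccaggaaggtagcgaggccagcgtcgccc
GATA3 promoter, chr10:8045083-8045382, plus strand: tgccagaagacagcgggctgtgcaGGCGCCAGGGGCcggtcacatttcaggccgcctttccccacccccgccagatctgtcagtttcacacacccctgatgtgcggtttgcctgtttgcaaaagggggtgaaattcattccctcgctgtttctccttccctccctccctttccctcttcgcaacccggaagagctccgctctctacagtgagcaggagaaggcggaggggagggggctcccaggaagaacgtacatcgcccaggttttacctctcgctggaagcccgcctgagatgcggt
TFAP2A promoter, chr6:10419610-10419909, minus strand: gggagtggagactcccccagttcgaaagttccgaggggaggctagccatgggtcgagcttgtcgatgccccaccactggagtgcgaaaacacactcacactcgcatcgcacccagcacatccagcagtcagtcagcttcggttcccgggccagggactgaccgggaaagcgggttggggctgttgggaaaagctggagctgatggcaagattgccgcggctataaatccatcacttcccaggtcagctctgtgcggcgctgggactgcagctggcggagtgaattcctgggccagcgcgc
MSX1 promoter, chr4:4859415-4859714, plus strand: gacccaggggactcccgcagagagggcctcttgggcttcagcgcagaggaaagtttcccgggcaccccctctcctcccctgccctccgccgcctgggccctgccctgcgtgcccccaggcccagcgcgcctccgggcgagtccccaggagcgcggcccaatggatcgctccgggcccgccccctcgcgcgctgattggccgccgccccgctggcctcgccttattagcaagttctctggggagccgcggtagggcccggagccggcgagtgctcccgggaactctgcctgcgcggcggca
MSX2 promoter, chr5:174724332-174724631, plus strand: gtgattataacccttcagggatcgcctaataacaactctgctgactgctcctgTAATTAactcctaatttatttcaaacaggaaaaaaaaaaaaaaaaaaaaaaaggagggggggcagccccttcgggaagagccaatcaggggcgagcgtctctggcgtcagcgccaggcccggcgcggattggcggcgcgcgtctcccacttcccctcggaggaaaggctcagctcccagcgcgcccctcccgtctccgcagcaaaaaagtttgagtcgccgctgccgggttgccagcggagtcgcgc

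The GATA2 window held 1 TFAP2 match, at position -151 from the start site, and the GATA3 window held a TFAP2 match at position -223 that overlaps a GGCGCC match at position -226. The MSX2 window held 1 homeodomain match, at position -197, and the TFAP2A and MSX1 windows held no match to these letters. In RefSeq, 8 of the 10 genes had promoter entries, with 15 windows, and TFAP2C and DLX5 are named only. Matches to the TFAP2 letters were present in 6 of the 15 windows, in GATA2, GATA3 and HAND1, against 23.2% of all 35116 windows of the same 300-base length. GATA letters were in 1 window, that of ISL1 (10.3% of all windows), homeodomain letters in 1 (4.84%) and GGCGCC in 4, in GATA2 and GATA3 (19.2%). Windows of 1 gene are not independent, and a match describes letters, not binding.

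In the knockout against WT, 7 of the 9 factors that passed the low-count filter rose and 2 fell by edgeR's quasi-likelihood test at a Benjamini-Hochberg adjusted p under 0.05. HAND1 did not pass that filter. GATA2 and GATA3, with 8 counts and 1 count over the WT libraries, passed it only through the knockout libraries and could hardly have fallen. Of all 21063 genes tested, 76.2% were called in this comparison, 36.8% higher and 39.4% lower, so that being called sets no factor apart. GATA2, GATA3 and TFAP2A had the largest rises, TFAP2B, MSX2 and DLX5 rose by 2.34 to 3.16 and MSX1 by 1.21 on the log2 scale, while TFAP2C and ISL1 fell. The median log2 change of the 9 factors was 2.87, against -0.04 for all tested genes.

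**Figure D1:**
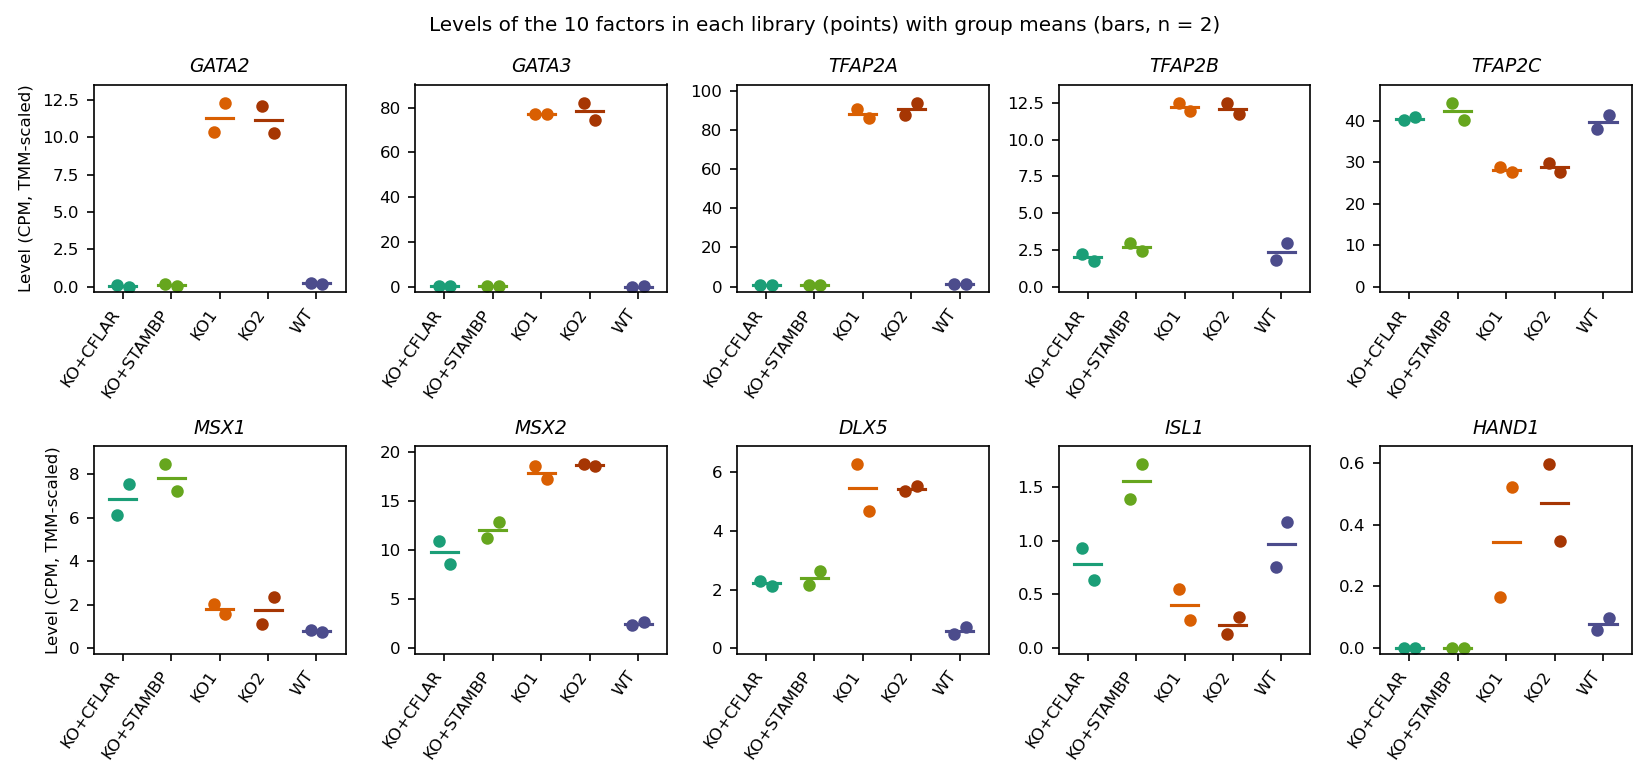
Level of each of the 10 factors in CPM (vertical axis, linear, its own range in each panel) in the 5 groups, with points for the 2 libraries of a group and bars for their mean. GATA2, GATA3, TFAP2A and TFAP2B were high in KO1 and KO2 alone among the groups, MSX1 was highest in the 2 rescue groups, and TFAP2C and ISL1 were lowest in KO1 and KO2.

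GATA3, a zinc finger factor of trophoblast and surface ectoderm (chr10:8045378-8075203, plus strand), had 77.1 and 77.3 CPM in KO1 and 82.2 and 74.6 CPM in KO2, against 0 and 0.0489 CPM in WT. All 4 knockout libraries held 1187 counts of it or more, and the 2 WT libraries held 1 count between them. The ratio of the summed levels was 2923-fold, with a 95% counting interval of 524 to 115477. The fitted log2 change was 11.19 ± 0.23 (SE, adjusted p = 3.75e-15), a value that depends on the prior count and ran from 10.44 without WT replicate 1 to 13.47 without WT replicate 2. This SE, taken from the F statistic, is far narrower than the counting interval and understates the uncertainty. In the rescues, GATA3 had 0.0932 and 0.318 CPM in KO+CFLAR and 0.206 and 0.107 CPM in KO+STAMBP. Its log2 change against the knockout was -8.51 ± 0.17 in KO+CFLAR (adjusted p = 2.48e-15) and -8.89 ± 0.18 in KO+STAMBP (adjusted p = 3.74e-15), and the KO+CFLAR value was -7.90 without its replicate 1 and -9.60 without its replicate 2. Against WT, GATA3 was not called in KO+CFLAR (9 counts in all, adjusted p = 0.0686) or in KO+STAMBP (6 counts, adjusted p = 0.148). The ratio of summed levels to WT was 7.78 in KO+CFLAR (95% counting interval 1.08 to 341) and 5.93 in KO+STAMBP (0.719 to 273). The KO+CFLAR interval lies above 1, so the lack of a call there is not firm.

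GATA2, which works beside GATA3 in trophoblast and also in blood progenitors (chr3:128479427-128493185, minus strand), had 10.4 and 12.3 CPM in KO1 and 12.1 and 10.3 CPM in KO2, against 0.233 and 0.196 CPM in WT. The knockout libraries lay far above both WT libraries, which held 4 counts each. Its log2 change was 5.68 ± 0.33 (adjusted p = 6.97e-10). The ratio of its summed levels, knockout over WT, was 52.6, with a 95% counting interval of 26.6 to 122. KO+CFLAR held 2 counts of GATA2 over both libraries and KO+STAMBP 4, so both rescues lay below all knockout libraries. The ratio of summed levels to the knockout was 0.00411 in KO+CFLAR (95% counting interval 0.000496 to 0.0149) and 0.00938 in KO+STAMBP (0.00255 to 0.0241). GATA2 differed from WT in neither rescue by the test (adjusted p = 0.0923 in KO+CFLAR and 0.386 in KO+STAMBP). Leaving out KO+CFLAR replicate 1 moved both GATA genes further from WT in that group. GATA2 changed by -5.00 in place of -2.06, and GATA3 by 3.28 in place of 2.68. The 1 library left held 0 counts of GATA2 and 7 of GATA3, so the GATA2 value depends on the prior count.

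The 3 TFAP2 factors moved in different directions. TFAP2A, which is required in neural crest and surface ectoderm and is induced early in trophoblast (chr6:10393186-10419659, minus strand), had 90.7 and 85.9 CPM in KO1 and 87.6 and 93.8 CPM in KO2, against 1.16 and 1.17 CPM in WT. The groups were far apart, with a log2 change of 6.25 ± 0.11 (adjusted p = 8.36e-16). In KO+CFLAR it had 0.978 and 0.635 CPM and in KO+STAMBP 0.877 and 0.855 CPM, below both WT libraries but without a call against WT (adjusted p = 0.201 and 0.33). Exons of TFAP2A overlap 2 antisense genes, and with no strand setting stated their reads cannot be told apart from those of TFAP2A. TFAP2A-AS1 held 78 counts over the 4 knockout libraries and TFAP2A-AS2 162, against 5916 for TFAP2A (neighbours chosen after their values were seen).

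TFAP2B, a factor of neural crest, kidney and placodes (chr6:50818723-50847613, plus strand), had 12.5 and 11.9 CPM in KO1 and 12.5 and 11.7 CPM in KO2, against 1.80 and 2.93 CPM in WT. It rose by 2.34 ± 0.19 on the log2 scale (adjusted p = 3.98e-08) with no overlap of libraries. TFAP2C, which acts in trophoblast and germ cells and is also expressed in cortical progenitors (chr20:56629302-56639283, plus strand), had 28.96 and 27.6 CPM in KO1 and 29.96 and 27.8 CPM in KO2, against 38.2 and 41.4 CPM in WT. It was the most abundant of these 3 factors in WT, and it fell by 0.48 ± 0.06 (adjusted p = 8.57e-06). Both genes were near WT in the rescues: TFAP2B averaged 2.002 ± 0.330 CPM in KO+CFLAR and 2.70 ± 0.41 CPM in KO+STAMBP, against 2.37 ± 0.80 CPM in WT, and TFAP2C averaged 40.6 ± 0.4 CPM and 42.3 ± 2.9 CPM, against 39.8 ± 2.3 CPM in WT (SD, n = 2 each). Neither was called against WT in either rescue, with adjusted p between 0.388 and 0.822.

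Counted per kilobase of exon, so that members of a family can be compared, the TFAP2 family changed its make-up. TFAP2A gave 46.3 ± 1.1% of the family's level in the knockout (SD, n = 4) and 0.441 ± 0.017% in WT (n = 2). TFAP2E, a paralog outside the 10 factors, gave 4.57 ± 0.96% in the knockout and 56.9 ± 0.7% in WT. TFAP2C gave 40.7 ± 1.5% in the knockout and 41.3 ± 0.5% in WT. TFAP2E itself changed by -4.07 ± 0.12 on the log2 scale in the knockout (adjusted p = 2.65e-13), and it stayed below WT in KO+CFLAR (-0.89 ± 0.11, adjusted p = 1.23e-05) and in KO+STAMBP (-0.87 ± 0.11, adjusted p = 1.69e-05). In the rescues TFAP2C gave the largest share, 56.8 ± 1.4% in KO+CFLAR and 57.1 ± 0.8% in KO+STAMBP. Among the GATA paralogs, GATA6, an endoderm and extraembryonic factor, rose to 3.09 ± 0.595 CPM in the knockout (204 counts), against 1 count over both WT libraries (adjusted p = 1.28e-06).

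**Figure D2:**
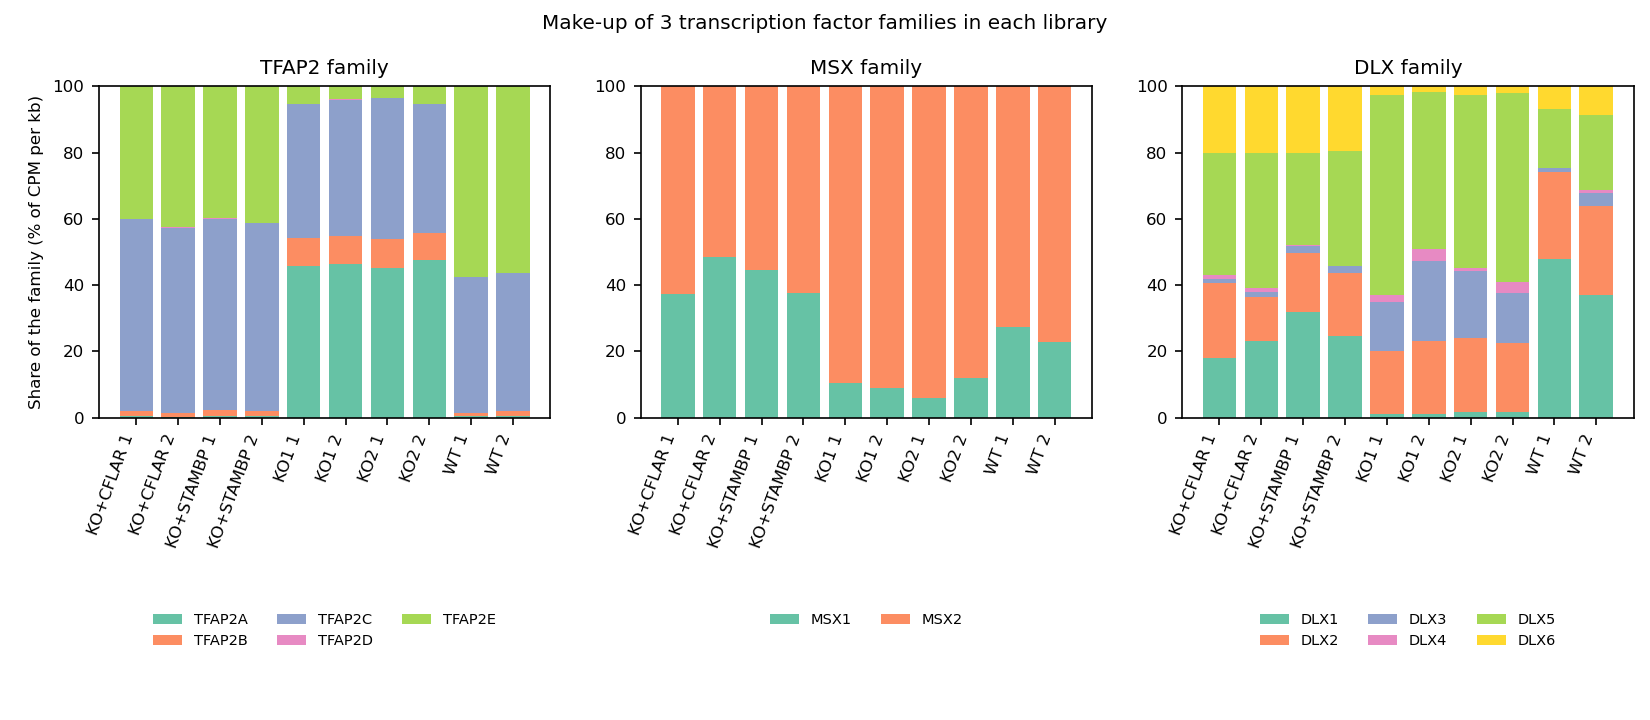
Share of each gene in its family's level per kilobase of exon (vertical axis, percent) in each of the 10 libraries, for the TFAP2, MSX and DLX families. TFAP2A filled 46.3% of the TFAP2 family in the knockout and under 1% elsewhere, and MSX1 filled 9.34% of the MSX family in the knockout, against 25.1% in WT.

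MSX1 and MSX2, homeodomain repressors downstream of BMP signalling, did not move alike. MSX2 (chr5:174724533-174730893, plus strand) had 18.6 and 17.3 CPM in KO1 and 18.8 and 18.6 CPM in KO2, against 2.33 and 2.64 CPM in WT. Its rise was 2.87 ± 0.15 on the log2 scale (adjusted p = 1.81e-10). In the rescues it lay between the 2, at 10.99 and 8.57 CPM in KO+CFLAR and 11.3 and 12.9 CPM in KO+STAMBP, overlapping neither the knockout nor WT. It fell against the knockout by 0.91 ± 0.11 in KO+CFLAR (adjusted p = 4.33e-06) and by 0.60 ± 0.11 in KO+STAMBP (adjusted p = 2.15e-04), and remained above WT by 1.97 ± 0.17 (adjusted p = 4.88e-07) and 2.27 ± 0.17 (adjusted p = 9.54e-08).

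MSX1 (chr4:4859666-4863936, plus strand) was highest in the rescues, at 6.15 and 7.57 CPM in KO+CFLAR and 8.46 and 7.22 CPM in KO+STAMBP, with 2.04 and 1.56 CPM in KO1, 1.12 and 2.37 CPM in KO2, and 0.815 and 0.734 CPM in WT. All rescue libraries exceeded all knockout libraries, and these exceeded both WT libraries. Against WT, MSX1 rose by 3.14 ± 0.31 in KO+CFLAR (adjusted p = 2.02e-06) and by 3.33 ± 0.31 in KO+STAMBP (adjusted p = 1.06e-06). Against the knockout it rose by 1.93 ± 0.22 (adjusted p = 1.75e-06) and 2.12 ± 0.22 (adjusted p = 6.23e-07). The knockout's own rise over WT was 1.21 ± 0.33 (adjusted p = 0.00393) and rested on 119 counts over 4 libraries and 29 over 2. In KO2 against WT it was 1.19 (adjusted p = 0.01) and became 0.54 (adjusted p = 0.282) without KO2 replicate 2 and 1.11 (adjusted p = 0.057) without WT replicate 2, within a range of 9.51e-04 to 0.282 over the alternatives. In KO1 it was 1.23 (adjusted p = 0.00819) and became 1.01 without KO1 replicate 1 (adjusted p = 0.0692, range 0.00177 to 0.0692).

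DLX5, which patterns the neural plate border, placodes and ventral forebrain (chr7:97020392-97024950, minus strand), had 6.28 and 4.69 CPM in KO1 and 5.36 and 5.54 CPM in KO2, against 0.466 and 0.734 CPM in WT. It rose by 3.16 ± 0.27 in the knockout (adjusted p = 6.62e-08). In the rescues it stood between, at 2.28 and 2.13 CPM in KO+CFLAR and 2.17 and 2.62 CPM in KO+STAMBP, without overlap with the knockout or WT. The rises over WT were 1.85 ± 0.31 (adjusted p = 3.43e-04) and 1.96 ± 0.31 (adjusted p = 2.01e-04). Its genomic neighbour DLX6 was not called in the knockout (0.02 ± 0.41, adjusted p = 0.984) but rose over WT in KO+CFLAR by 2.32 ± 0.38 (adjusted p = 2.27e-04) and in KO+STAMBP by 2.73 ± 0.37 (adjusted p = 4.62e-05). Overlap of DLX6 with antisense genes was not checked, so with no strand setting stated its counts may include reads of such genes. Of the other DLX genes, DLX1 fell in the knockout (-3.23 ± 0.29, adjusted p = 1.37e-07), while DLX2 (1.44 ± 0.28, adjusted p = 3.52e-04) and DLX3, which acts in trophoblast and epidermis (4.38 ± 0.49, adjusted p = 1.41e-06), rose. DLX5 gave 54.2 ± 5.6% of the DLX family per kilobase in the knockout (SD, n = 4) and 20.3 ± 3.6% in WT (n = 2).

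ISL1 and HAND1 were low in every library. ISL1, a LIM homeodomain factor of amnion, heart progenitors and motor neurons (chr5:51383391-51394738, plus strand), had 10 and 4 counts in KO1 and 2 and 5 counts in KO2, against 13 and 24 counts in WT. It fell by 1.68 ± 0.47 on the log2 scale (adjusted p = 0.00466), opposite to the GATA genes. Without WT replicate 2 it was -1.32 and no longer called (adjusted p = 0.0791, range over the alternatives 6.65e-04 to 0.0791). In KO1 alone it was not called (-1.22 ± 0.53, adjusted p = 0.0531), but 5 alternatives called it, with -1.88 without KO1 replicate 1 (adjusted p = 0.0368, range over the alternatives 0.0303 to 0.285). In KO2 it was called (-2.15 ± 0.60, adjusted p = 0.00528), with -2.82 without KO2 replicate 2 and -1.79 without WT replicate 2 (adjusted p = 0.0501), in a range of 8.25e-04 to 0.0501. ISL1 had 20 and 14 counts in KO+CFLAR and 27 and 32 counts in KO+STAMBP, and rose over the knockout by 1.37 ± 0.47 (adjusted p = 0.0167) and 2.35 ± 0.44 (adjusted p = 2.07e-04). The KO+CFLAR call was lost without KO+CFLAR replicate 1 (1.08, adjusted p = 0.136), with DESeq2 (1.38, adjusted p = 0.0956) and with KO1 alone as the knockout (0.91, adjusted p = 0.142), in a range of 0.00746 to 0.142.

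HAND1, a basic helix-loop-helix factor of trophoblast giant cells in mouse and of extraembryonic mesoderm and amnion (chr5:154474972-154478264, minus strand), had 3 and 8 counts in KO1 and 9 and 6 counts in KO2, 0 counts in all 4 rescue libraries, and 1 and 2 counts in WT. The ratio of its summed levels, knockout over WT, was 4.95, with a 95% counting interval of 1.52 to 25.5. HAND1 was at least 2.95-fold lower in KO+CFLAR and at least 2.58-fold lower in KO+STAMBP than in the knockout, with 3 counts per library as the floor. These bounds and intervals cover counting error only.

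**Figure D3:**
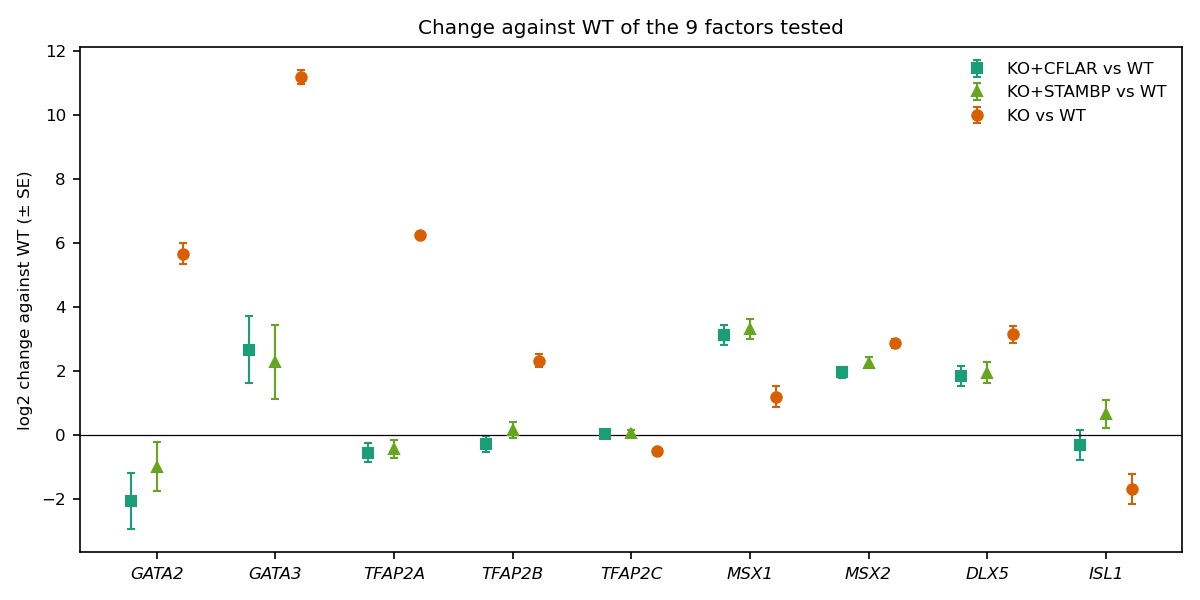
Fitted log2 change against WT (vertical axis) of the 9 factors tested, with standard errors, for KO+CFLAR, KO+STAMBP and the knockout (KO1 and KO2 with equal weight). The knockout changes run from -1.68 for ISL1 to 11.19 for GATA3, whose WT level was 1 count, while in the rescues MSX1, MSX2 and DLX5 lie above WT in both groups. The standard errors of GATA2 and GATA3 in the knockout understate the uncertainty, since their WT levels rest on few counts.

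KO1 and KO2 were then compared for the 9 factors. None was called by edgeR's test (0 at an unadjusted p under 0.05, and 0 by DESeq2), where 0.157% of all genes were (0.133% higher and 0.0237% lower). ISL1 had the largest difference, 0.93 ± 0.68 on the log2 scale (adjusted p = 0.933), and the other 8 ranged from -0.06 to 0.03. In KO1 alone 7 factors rose and 1 fell against WT (72.9% of genes called, 35.6% higher and 37.3% lower), and in KO2 7 rose and 2 fell (73.1% called, 35.8% higher and 37.3% lower).

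Against the knockout, the same 3 factors rose and the same 6 fell in both rescues, where 78.0% of genes were called in KO+CFLAR (40.0% higher and 38.0% lower) and 77.9% in KO+STAMBP (40.1% higher and 37.8% lower). By DESeq2, which was run on all genes, HAND1 among them, 2 rose and 7 fell in KO+CFLAR, where ISL1 was not called, and 3 rose and 7 fell in KO+STAMBP, with HAND1 as the added one in both. By edgeR's test, MSX1, TFAP2C and ISL1 rose, and GATA2, GATA3, TFAP2A, TFAP2B, MSX2 and DLX5 fell. The medians were -1.31 in KO+CFLAR and -1.19 in KO+STAMBP, against 0.04 for all genes in both. GATA2 and GATA3, which passed the filter only through the knockout libraries, could hardly have risen here. The tallies and medians against the knockout are thus partly set by the filter. These comparisons share the knockout libraries with the comparison to WT. Against WT, MSX1, MSX2 and DLX5 rose in both rescues, 0 factors fell and 6 were not called by edgeR's test, where 33.7% of genes were called in KO+CFLAR (15.8% higher and 17.9% lower) and 34.9% in KO+STAMBP (16.4% higher and 18.5% lower). At an unadjusted p under 0.05 there were 5 factors in KO+CFLAR and 3 in KO+STAMBP, and DESeq2 called 3 in each. These share the WT libraries with the knockout's comparison. The medians were 0.03 and 0.67, against 0.01 for all genes in both.

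Between the rescues, 0 of the 9 factors were called (1.09% of all genes, 0.627% higher and 0.461% lower), 2 had an unadjusted p under 0.05, and DESeq2 called 0, giving no adjusted p for them. The 2 were MSX2, at -0.31 ± 0.13 (adjusted p = 0.357), and ISL1, at -0.98 ± 0.45 (adjusted p = 0.398).

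The other genes of the same cell types were read from lists of markers. As a base for their tallies, 36.8% of all tested genes were higher and 39.4% lower in the knockout than in WT. In the knockout against WT, 14 of 15 tested surface ectoderm and placode genes rose and 0 fell (18 listed, median 7.14, or 3.27 with KRT14, at 0 in WT, at its bound). Keratins led the list: KRT8 averaged 2557 ± 87 CPM in the knockout and 15.2 ± 0.1 CPM in WT, KRT18 1332 ± 26 CPM and 5.69 ± 0.88 CPM, and KRT19 1299 ± 35 CPM and 0.667 ± 0.044 CPM (SD, n = 4 and 2). These keratins carried most of the list's summed level in the knockout, which was 6058 to 6429 CPM. KRT5, chosen after its value was seen, was the tested gene not called (-0.40 ± 0.27, adjusted p = 0.194). KRT14, at 0 in WT, could not fall. GRHL2 (9.23 ± 0.19) and GRHL3 (9.09 ± 0.16), chosen after their values were seen, lay near the floor in WT and hardly could. The tally and median of this list are thus partly set by the filter. Of 11 tested amnion genes, 8 rose and 3 fell (12 listed, median 3.50). MUC16 and ITGB6, with 11 and 6 counts over both WT libraries, could hardly have fallen. This tally and median are thus also partly set by the filter. MUC16, a membrane mucin, averaged 403.0 ± 26.5 CPM in the knockout and 0.306 ± 0.225 CPM in WT, and ITGB6, an integrin subunit, 293.1 ± 6.2 CPM and 0.156 ± 0.056 CPM. IGFBP5, which binds insulin-like growth factors, went the other way, with 106.4 ± 2.0 CPM in the knockout and 293.6 ± 1.8 CPM in WT.

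Of 24 trophoblast genes, 11 were tested, 9 rose and 0 fell (median 3.24, or 2.67 with CGA and ELF5, at 0 in WT, at their bounds). CGA and ELF5 could not fall, and VGLL1, with 1 count in WT, hardly could. Such genes passed the filter only through groups where they are high, so the tally and median are partly set by the filter. SDC1, a syncytiotrophoblast proteoglycan, averaged 339.9 ± 8.7 CPM in the knockout and 18.4 ± 0.04 CPM in WT, and VGLL1, a TEAD cofactor, 38.5 ± 1.4 CPM and 0.0291 ± 0.0412 CPM. ERVW-1, the syncytin 1 gene, was not called (7.27 ± 0.73 CPM and 6.88 ± 0.02 CPM, adjusted p = 0.608). The hormone and growth factor genes of the list were split (genes chosen after their values were seen). CGA, the alpha subunit of chorionic gonadotropin, rose to 67 counts over the 4 knockout libraries, against 0 in WT (adjusted p = 1.65e-04), and CGB7, a beta subunit gene (2.21 ± 0.51, adjusted p = 0.00125), and PGF, placental growth factor (1.55 ± 0.27, adjusted p = 1.26e-04), rose as well. Too low to be tested were CGB5 and CGB8, with 5 counts each over the 4 knockout libraries, and INSL4 and PSG1, with 4 each. CDX2 of the amnion list held 7. The CGB genes are near-identical copies, so their counts are uncertain. GCM1, CYP19A1 and HSD3B1 were also too low to be tested, averaging 0.110, 0.131 and 0.060 CPM over all libraries. The summed level of the 24 genes was 401.5 to 430.3 CPM in the knockout and 28.7 to 29.6 CPM in WT. SDC1 alone carried most of that sum in the knockout, so the sum mainly follows 1 gene. These lists moved with GATA2, GATA3 and TFAP2A in the same libraries, and their part in the factors' change was not tested.

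In the rescues the same lists were read against WT. Of all tested genes, 15.8% rose and 17.9% fell in KO+CFLAR, and 16.4% rose and 18.5% fell in KO+STAMBP. Of the surface ectoderm genes, 6 of 15 rose and 1 fell in KO+CFLAR, and 5 rose and 1 fell in KO+STAMBP. Of the amnion genes 2 of 11 rose and 4 fell in KO+CFLAR, and 2 rose and 3 fell in KO+STAMBP, and of the trophoblast genes 0 of 11 were called in either. Of the cortical hem, roof plate and choroid plexus list, 12 of 13 genes rose and 0 fell over WT in each rescue, with medians of 2.02 in KO+CFLAR and 2.04 in KO+STAMBP. TTR, the transthyretin made by choroid plexus, averaged 292.2 ± 6.6 CPM in KO+CFLAR and 329.7 ± 2.5 CPM in KO+STAMBP, against 19.1 ± 1.1 CPM in WT. RSPO2, a Wnt agonist of the hem, averaged 121.3 ± 1.1 CPM and 142.7 ± 0.3 CPM, against 18.9 ± 0.8 CPM in WT. MSX1, MSX2, DLX5 and DLX6 were above WT in the same libraries, and the part of hem, roof plate or choroid plexus cells in their level was not tested. Of 10 tested GABAergic and ventral forebrain genes, 0 rose and 2 fell in KO+CFLAR, and 2 rose and 3 fell in KO+STAMBP.

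**Figure D4:**
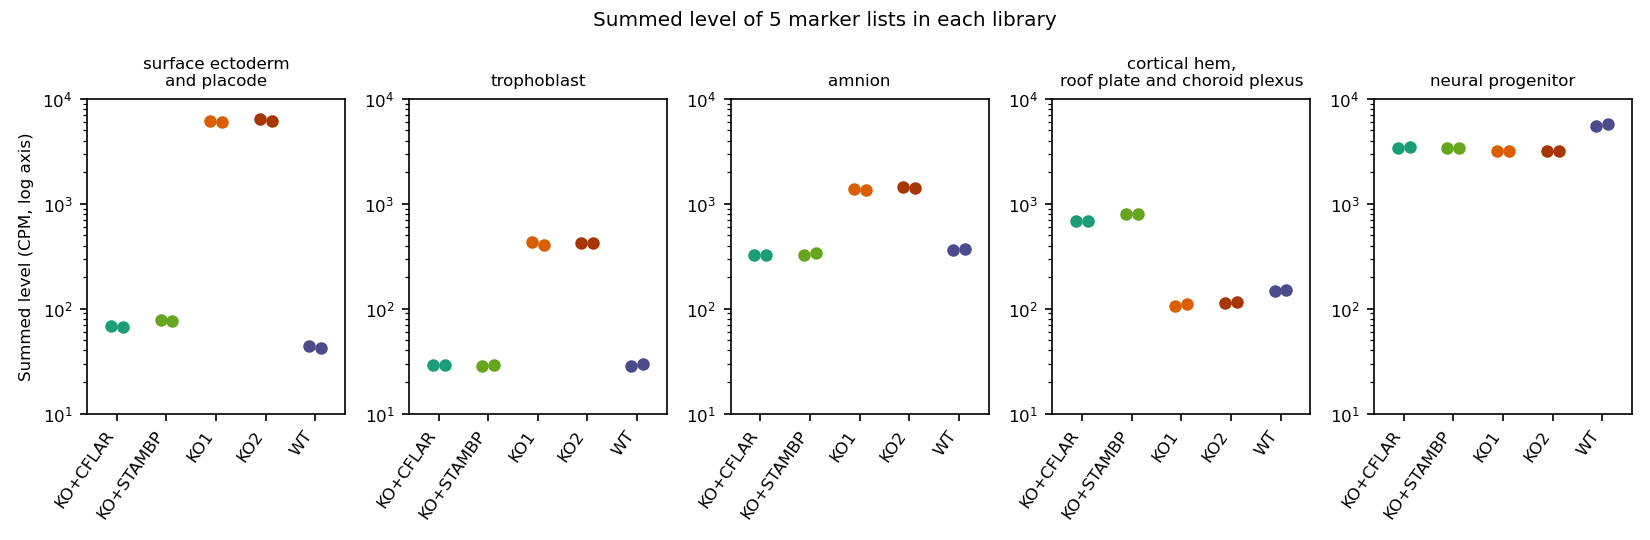
Summed level of 5 marker lists in CPM (vertical axis, log scale) in the 2 libraries of each group. Surface ectoderm, trophoblast and amnion sums were highest in KO1 and KO2, and the cortical hem, roof plate and choroid plexus sum was 688 to 689 CPM in KO+CFLAR and 796 to 797 CPM in KO+STAMBP, against 148 to 152 CPM in WT. In the knockout, KRT8, KRT18 and KRT19 carried most of the surface ectoderm sum, and SDC1 most of the trophoblast sum.

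The BMP pathway acts on all these factors in the embryo. Of its 25 genes 13 rose and 11 fell in the knockout against WT (median 0.26). Genes going both ways do not set it apart, since 36.8% of all tested genes were higher and 39.4% lower. The BMP ligands were chosen after their values were seen, and BMP4, BMP6 and GDF7 stand in the amnion and hem lists and not among the 25. BMP4 (2.13 ± 0.12, adjusted p = 3.94e-10), BMP2 (1.51 ± 0.10, adjusted p = 2.26e-09), BMP5 (3.51 ± 0.17, adjusted p = 7.64e-11), BMP6 (3.14 ± 0.18, adjusted p = 6.76e-10) and GDF6 (3.27 ± 0.79, adjusted p = 0.00181) rose. BMP7 (-1.53 ± 0.04, adjusted p = 5.99e-14) and GDF7 (-3.37 ± 0.14, adjusted p = 9.85e-12) fell. BMP6 also rose over WT in KO+CFLAR (2.02 ± 0.21, adjusted p = 2.98e-06) and KO+STAMBP (2.32 ± 0.20, adjusted p = 6.62e-07). GDF7 rose over WT there as well (1.54 ± 0.09, adjusted p = 1.32e-08, and 1.71 ± 0.09, adjusted p = 4.65e-09). BMP7 fell in both (-1.70 ± 0.05, adjusted p = 4.65e-12, and -1.56 ± 0.05, adjusted p = 1.15e-11). BMP2 and BMP4 fell in KO+CFLAR alone (adjusted p = 0.0224 and 1.72e-05). In the knockout the receptor BMPR2 was not called (0.05 ± 0.06, adjusted p = 0.479). The receptors BMPR1A (-1.81 ± 0.03, adjusted p = 1.60e-15) and BMPR1B (-0.97 ± 0.10, adjusted p = 3.05e-07), chosen after their values were seen, fell. SMAD4, the shared partner of receptor SMADs, fell by 0.20 ± 0.03 (adjusted p = 8.95e-05). Targets also split: ID1 rose by 1.82 ± 0.08 (adjusted p = 2.51e-11; chosen after its value was seen), while ID4 fell by 3.16 ± 0.04 (adjusted p = 1.81e-17). Against WT, 7 of the 25 rose and 5 fell in KO+CFLAR (15.8% and 17.9% of all tested genes). In KO+STAMBP 12 rose and 4 fell (16.4% and 18.5%).

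The remaining lists gave these counts in the knockout against WT, where 36.8% of all tested genes were higher and 39.4% lower. Of 9 tested neural crest genes, 3 rose and 4 fell: ETS1 rose by 8.63 ± 0.14 (adjusted p = 2.65e-16), while SOX9 (-1.12 ± 0.04, adjusted p = 6.64e-13) and EDNRB (-3.94 ± 0.08, adjusted p = 3.97e-15) fell. SOX10, the defining gene of migrating crest, held 33 counts over the 4 knockout libraries and 9 in WT. Of 7 tested mesoderm and heart genes 4 rose and 2 fell. PDGFRA rose by 4.42 ± 0.55 (adjusted p = 6.35e-06), with WT libraries from 0.196 to 2.85 CPM. EOMES fell by 8.40 ± 0.11 (adjusted p = 2.52e-17), and MEIS2 was not called (-0.10 ± 0.05, adjusted p = 0.0724). TBXT, the primitive streak gene, held 1 count in the knockout. EOMES, SOX9 and EDNRB averaged 62.8, 384.5 and 66.2 CPM in WT, whose cells are labelled NPC. Their falls thus cannot be read as a change of mesoderm or crest cells. Of 10 GABAergic genes 3 rose and 7 fell, of 8 hindbrain and spinal neuron genes 1 rose and 4 fell, of 13 hem and choroid plexus genes 2 rose and 8 fell, and of 8 tested paralogs of the factors 5 rose and 2 fell.

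Across the 10 libraries, the patterns of the factors are described by Pearson's r of log2(CPM + 0.5), with no test because libraries of a group share their source. GATA2, GATA3, TFAP2A and TFAP2B followed each other with r of 0.982 to 0.998, and TFAP2C ran against them with r of -0.931 to -0.976. MSX2 and DLX5 followed each other with r of 0.967, and MSX1 followed none, its highest r being 0.489, with ISL1. Among 14416 genes with a mean of at least 2 CPM, those most like GATA3 were ATG9B, ITGA3 and FURIN. For TFAP2A they were CREB3L2, FLNC and MACC1, and for GATA2 S100A6, TWF2 and KIAA1671, and 3673 to 3853 genes passed an r of 0.95 with one of these 3 factors. MSX1 had 21 such genes, led by CAMSAP3 (r = 0.992), KCNJ2 (r = 0.979) and TCERG1L (r = 0.975). MSX2 had 78, led by THSD7A, TIMP3 and SULF2, and DLX5 had 182, led by BTBD11, AHRR and FRAT2. TFAP2B was closest to ALG3, RNF135 and FKBP9, TFAP2C to NPIPP1, LDOC1 and NT5C3B, and ISL1 to TNFRSF25 (r = 0.956), SYNPR and LUC7L2.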

How the data were processed

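Per the labels' protocols, RNA was taken up in Trizol and made into TruSeq libraries. The authors deposited 1 table of unnormalized gene counts, all whole numbers, covering 10 libraries. GRCh38 and hg38 are the builds, and DESeq2, RSEM 1.2.4 and fastp 0.20.0 the tools, listed by the submitters' processing notes, which give none of them a role. The annotation release, the strand setting and any rounding are not given in the sources used here. MSTRG locus names head 8314 rows, GATA2's among them, and 667 of these have no Ensembl identifier (0.33% of counts).

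From the deposited counts, edgeR 4.0.16 (R 4.3.3) was run with TMM factors, the filterByExpr filter (21063 genes, 99.9% of counts) and 1 mean per group, fitted to the 10 libraries together (5 residual degrees of freedom). Calls took a Benjamini-Hochberg adjusted p under 0.05 over all tested genes, and SE is the change divided by the root of F. Where a group holds few counts, this SE understates the uncertainty. KO1 and KO2 had equal weight in the knockout. Scripts were tested on simulated data. Positions and exon lengths come from GENCODE release 29 on GRCh38, and promoters from RefSeq. The genes named are the 10 factors, the 3 most expressed genes of each list, paralogs at a mean of at least 1 CPM, the 3 genes of most similar pattern, STAMBP and CFLAR; others are marked, except list markers at or near 0 counts. The factors, lists and tests were chosen with earlier results of these data known. Alternatives were DESeq2 1.42.0, median-of-ratios factors, library size alone, no filter, a filter of 50 counts in at least 2 libraries, a replicate block, leaving out each library, fitting only the groups compared, KO1 or KO2 alone as the knockout, and the fit without KO+CFLAR.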

Additional observations from a re-analysis of the deposited data

Results flagged for a closer look

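MSX2 in the 4 knockout libraries held 1 value apart from the rest: KO1 replicate 2 had 17.3 CPM, and the other 3 libraries had 18.6 to 18.8 CPM. Its gap to the nearest library was 0.873 of the range, above Dixon's 95% critical value for 4 samples. The cause was not tested. Chance alone flags about 5% of groups. All 4 lay above WT, at 2.33 and 2.64 CPM.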

How the results depend on the processing

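Of 81 factor-by-comparison results, 50 were called; none of the 50 changed direction, and 45 kept their call, under each alternative that could be fitted. The exceptions concern ISL1 and MSX1, given with the results. Called values that moved over 1.5 times when 1 library was left out were those of GATA3 against WT and of GATA3, GATA2, MSX1 and ISL1 as given there, and GATA2 against the knockout: -10.67 without KO+CFLAR replicate 1, -6.81 without its replicate 2, and -7.54 in KO+STAMBP without its replicate 1. The -10.67 depends on the prior count, since the KO+CFLAR library left held 0 counts of GATA2. The count of factors lower in KO vs WT was 1 with the 50-count filter, which removes ISL1, in place of 2, and ranged from 1 to 2 when libraries were left out; for KO2 vs WT it was also 1 with that filter and 1 to 2. For KO1 vs WT, where ISL1 was the factor added, it was 2 by library size alone and with no filter, in place of 1, and 1 to 2 when libraries were left out, and for KO+CFLAR vs WT it was 0 to 1. Over all genes, no filter gave 251 calls in place of 33 in KO1 vs KO2, which ranged from 20 to 58 when libraries were left out, and 780 in place of 229 in KO+CFLAR vs KO+STAMBP, which ranged from 27 to 313. The cause was not tested. Library size alone moved the median of all genes by -0.18 in KO vs WT, 0.21 in KO+STAMBP vs KO and 0.20 in KO+CFLAR vs KO, and the share of calls that were higher in KO+CFLAR vs KO+STAMBP was 47.0% in place of 57.6%.

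Replicate numbers did not pair the libraries (correlations of deviations from -0.0046 to 0.0752, 0 of 10 pairs over 0.1). With the replicate block, KO vs WT gave 16036 calls and 7 factors higher and 2 lower, KO1 vs KO2 30 and KO+CFLAR vs KO+STAMBP 301, and the block changed no factor's call.

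Only uncalled values changed sign, each when a library was left out. Against WT these were, in KO+STAMBP, TFAP2B (-0.12 to 0.58), and in KO+CFLAR, TFAP2B (-0.55 to 0.15), TFAP2C (-0.032 to 0.089) and ISL1 (-0.61 to 0.048). In KO1 vs KO2 they were GATA2 (-0.11 to 0.14), GATA3 (-0.088 to 0.050), TFAP2A (-0.087 to 0.013), TFAP2B (-0.032 to 0.059), TFAP2C (-0.080 to 0.028), MSX1 (-0.38 to 0.69) and DLX5 (-0.22 to 0.20). In KO+CFLAR vs KO+STAMBP they were GATA3 (-0.72 to 0.98), TFAP2A (-0.44 to 0.17), TFAP2C (-0.13 to 0.012) and DLX5 (-0.25 to 0.027). GATA2 and GATA3 outside the knockout, ISL1 and HAND1 rest on few counts.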

Other observations

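With no strand setting stated, reads of overlapping genes on opposite strands cannot be told apart. Long RNAs antisense to or beside these factors were read from the same counts, chosen after their values were seen. GATA2-AS1 averaged 4.34 ± 0.41 CPM in the knockout (SD, n = 4, 285 counts), against 2 counts over both WT libraries (adjusted p = 1.54e-07). GATA3-AS1 held 49 counts over the 4 knockout libraries and 0 in all rescue and WT libraries. DLX6-AS1, beside DLX5 and by its name antisense to DLX6, averaged 12.7 ± 1.7 CPM in KO+CFLAR, 14.2 ± 2.8 CPM in KO+STAMBP, 1.57 ± 0.35 CPM in the knockout and 5.46 ± 1.6 CPM in WT. It fell in the knockout against WT by 1.79 ± 0.23 (adjusted p = 4.94e-06), where DLX5 rose, and rose over WT by 1.23 ± 0.20 in KO+CFLAR (adjusted p = 2.77e-04) and by 1.39 ± 0.20 in KO+STAMBP (adjusted p = 8.96e-05).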
